A study of Mus musculus with 9 samples.

Results

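Before a mouse embryo transcribes its own genome, it runs on RNA and protein stored in the egg, and some of those stored products are known to act as activators or organisers of the first zygotic transcription. The 10 genes described here were chosen by name as such maternal factors: Smarca4, Ctcf, Yy1, Trim24, Trim28, Nfya, Dppa2, Dppa4, Yap1 and Tead4. Only array rows that name 1 gene were used, and where a gene had several, the row of highest mean over the 9 arrays stood for it. All 10 of 10 had such a row, out of 19938 genes with a row of their own.

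Levels were read in 9 single oocytes at metaphase II, the stage at which the egg waits for sperm, with 1 oocyte on each Affymetrix Mouse Gene 1.0 ST array. The donors were unmated females of the outbred ICR strain, 2 months of age, primed with 10 IU PMSG and 46 hours later with 10 IU hCG. RNA was purified with Qiagen RNeasy Mini columns (3 oocytes) or Arcturus PicoPure columns (3 oocytes), or the oocyte was lysed in NuGEN direct lysis buffer and the crude lysate was used (3 oocytes). All were amplified with NuGEN Ovation One-Direct chemistry, and the labels give no genotype or treatment that differs between the groups. The donors were outbred and may differ between groups, so preparation and donor cannot be told apart. Each condition used 3 mice, which gave 1 to 3 cells each, and the labels do not tie an oocyte to a mouse, so the p-values rest on oocyte-to-oocyte spread, and oocytes of 1 mother may be among them.

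Values are log2 levels, on which a step of 1 is a doubling, relative to the other messages on the same array. They report stored RNA and not protein. A working background was set on each array at the 95th percentile of 1231 olfactory, vomeronasal and taste receptor genes, and lay between 7.19 and 7.48. The arrays had medians between 7.12 and 7.24, and between 9661 and 11443 genes lay above background. Of 14 oocyte markers 14 lay above it on all 9 arrays, against 3 of 21 cumulus and granulosa cell markers, 2 of 12 blood cell markers and 3 of 11 oviduct markers. The summed level of the cumulus list ran from 11.28 to 11.70 with RNeasy, from 11.23 to 11.34 with PicoPure and from 11.31 to 11.45 with direct lysis. For the blood list it ran from 10.90 to 11.20, from 10.88 to 11.18 and from 11.02 to 11.36. The oviduct list ran from 12.01 to 12.11, from 12.23 to 12.27 and from 12.22 to 12.33, and its highest member was Cdh1, which oocytes also express. The cumulus and blood markers above background on all 9 arrays were Foxl2, Nr5a1, Col1a2, Ms4a1 and Cd3e, while Amh, Fshr and Ptprc were above it on none. Inhba, Tnfaip6 and Ptgs2, genes of granulosa cells or of cumulus expansion, exceeded it on 1 array only, RNeasy replicate 3, with 8.48, 8.39 and 7.56. Of the 21 cumulus markers 14 exceeded it on no array, among them Has2 and Ereg, and Ptx3 did so on 2 arrays.

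These proteins work at different steps. Smarca4 is the motor of the SWI/SNF complex, which slides and evicts nucleosomes. Ctcf and Yy1 are zinc finger proteins that bind DNA and help to fold chromatin, and the tripartite motif proteins Trim24 and Trim28 read or recruit histone marks. Nfya is the sequence-specific subunit of NF-Y, which binds the CCAAT box of promoters. Dppa2 and Dppa4 form a pair of SAP domain proteins known in embryonic stem cells as activators of Dux and other early embryonic genes. Yap1 is a coactivator without a DNA-binding domain of its own and works through TEAD proteins such as Tead4, which later sets up the trophectoderm.

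Several of these factors read short DNA words, so the start regions of the genes themselves were searched for the words of NF-Y (CCAAT), TEAD (GGAATG) and YY1 (GCCATNTT) on both strands. RefSeq start regions (GRCm38.p6), each of 300 bases from 250 before to 50 after an annotated start, were at hand for 7 of the 10 genes in 10 windows, some of which overlap, and none was used for Dppa2, Dppa4 and Tead4. The 4 stretches printed here hold such words, in capitals. The first 2 lie across the starts of Ctcf (chr8:105636488-105636567, plus strand) and Nfya (chr17:48409725-48409804, minus strand), and the other 2 lie before the starts of Yap1 (chr9:8004597-8004846, minus strand) and Trim24 (chr6:37870561-37870810, plus strand).
Ctcf: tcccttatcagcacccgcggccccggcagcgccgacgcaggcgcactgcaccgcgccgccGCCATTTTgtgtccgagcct
Nfya: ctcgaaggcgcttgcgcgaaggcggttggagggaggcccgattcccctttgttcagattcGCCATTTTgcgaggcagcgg
Yap1: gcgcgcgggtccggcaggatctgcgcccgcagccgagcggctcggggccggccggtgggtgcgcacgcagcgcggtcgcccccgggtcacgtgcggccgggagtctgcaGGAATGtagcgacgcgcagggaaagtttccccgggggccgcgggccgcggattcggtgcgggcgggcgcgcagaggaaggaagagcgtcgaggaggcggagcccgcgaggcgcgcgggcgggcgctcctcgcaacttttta
Trim24: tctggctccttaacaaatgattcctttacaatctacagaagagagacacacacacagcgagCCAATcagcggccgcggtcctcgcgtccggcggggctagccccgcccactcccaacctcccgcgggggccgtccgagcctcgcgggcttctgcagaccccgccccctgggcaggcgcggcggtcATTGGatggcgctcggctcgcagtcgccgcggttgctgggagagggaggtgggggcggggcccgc
The Ctcf and Nfya stretches hold the same YY1 word, GCCATTTT, at the same place, bases 261 to 268 of the 300-base window and so just after the start. The Yap1 stretch holds the TEAD word GGAATG at bases 110 to 115. The Trim24 stretch holds the NF-Y word on each strand, CCAAT at bases 62 to 66 and ATTGG at bases 186 to 190. A further Nfya window, at an annotated start downstream, holds CCAAT at bases 114 to 118. In all, 2 of 10 windows held the NF-Y word, 1 the TEAD word and 2 the YY1 word, against 37.4%, 14.7% and 6.05% of 32851 mouse windows of the same length. These matches describe letters and were not tested for binding.

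All 10 genes lay above background on all 9 arrays, against 43.1% of all genes. The margin over the array's own background was never under 3 log2 units for Ctcf (3.81 to 4.61), Trim24 (3.77 to 4.28), Nfya (3.33 to 4.04), Dppa2 (4.68 to 5.37) and Yap1 (3.31 to 3.78). For Tead4 it was 0.16 to 0.65. With the 99th percentile of the receptor genes as the limit, Tead4 passed on 0 of 9 arrays and Dppa4 on 8, while the other 8 genes still passed on all. Tead4 is therefore reported as near background. The plot of levels by preparation shows all 9 oocytes for each gene.

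**Figure D1:**
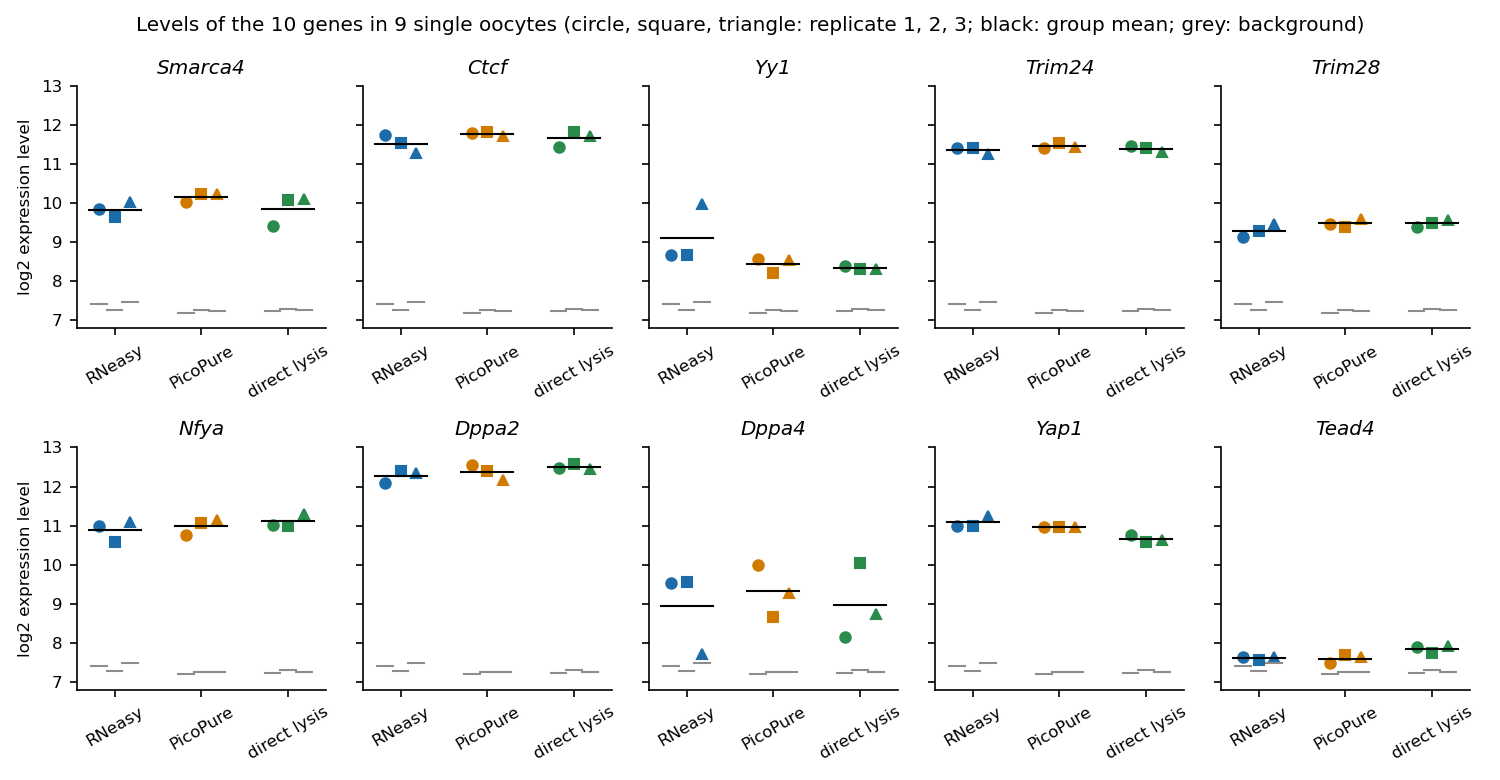
Log2 level (vertical axis) of the 10 genes in single oocytes, by preparation, with 1 point per oocyte, the group mean in black and each array's background in grey. Dppa4 spreads from 7.72 to 10.04, Yy1 has 1 high oocyte at 9.97, the direct lysis points of Yap1 lie below all others, and Tead4 lies just above background.

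None of the 10 genes passed the test in any comparison of the preparations (limma, adjusted p over all genes, threshold 0.05). For direct lysis against purified RNA the count was 0 of 10, where 1.01% of all genes passed, and 2 of 10 had an unadjusted p under 0.05, where 14.2% of all genes did. For PicoPure against RNeasy it was 0 of 10, beside 0.0602% of all genes, with 0 of 10 at an unadjusted p under 0.05, beside 7.98%. Direct lysis against RNeasy gave 0 of 10 beside 0.436%, with 3 of 10 unadjusted beside 13.4%, and direct lysis against PicoPure gave 0 of 10 beside 0.597%, with 2 of 10 unadjusted beside 12.3%. These comparisons share arrays. The median difference of the 10 genes was 0.00 between direct lysis and purified RNA, as over all genes, and 0.11 between the column kits, where it was -0.03 over all genes. Groups whose values did not overlap at all were 1 of 10 upward and 1 of 10 downward for direct lysis against purified RNA, where 4.31% and 3.72% of all genes did so. They were 1 and 2 of 10 for PicoPure against RNeasy (6.92% and 7.03%), 2 and 2 of 10 for direct lysis against RNeasy (7.97% and 8.89%), and 1 and 1 of 10 for direct lysis against PicoPure (8.94% and 7.67%). These shares are the background to the counts of 1 or 2, and nothing is read from counts so small. A difference that did not pass is not shown to be absent, and the intervals given below say how large it could be.

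**Figure D2:**
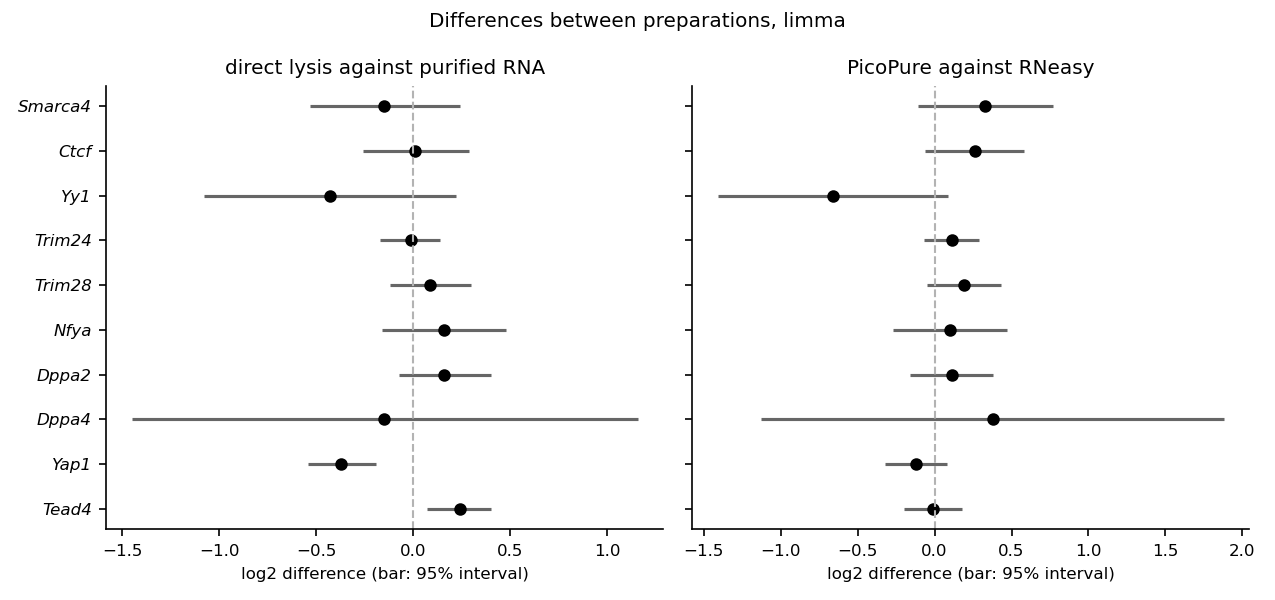
Log2 differences (horizontal axis) of the 10 genes, direct lysis minus purified RNA on the left and PicoPure minus RNeasy on the right, with 95% intervals from limma. The intervals of Yap1 (-0.54 to -0.19) and Tead4 (0.07 to 0.40) on the left lie off 0 before adjustment over all genes, and that of Dppa4 is the widest in both panels.

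Yap1 came closest to the threshold. Its level was 11.00, 11.00 and 11.25 in the RNeasy oocytes, 10.97, 10.96 and 10.97 with PicoPure and 10.75, 10.59 and 10.63 with direct lysis. All 3 crude lysates lay below all 6 purified samples, and the PicoPure oocytes lay within 0.01 of each other. The difference of direct lysis from purified RNA was -0.37 ± 0.07 (SE; 1.29-fold; 95% interval -0.54 to -0.19; limma, adjusted p = 0.0802). It was -0.43 ± 0.09 against RNeasy (adjusted p = 0.0948) and -0.31 ± 0.09 against PicoPure (adjusted p = 0.203), the last -0.17 with quantile normalization. The direction held in 17 of 17 alternatives, with differences from -0.41 to -0.25 and adjusted p from 0.0501 to 0.243, so no setting brought it past the threshold. The RNeasy oocyte at 11.25 stood apart, and without it the difference was -0.32 (limma, adjusted p = 0.0877).

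Tead4, one of the DNA-binding TEAD proteins through which Yap1 acts, ran the other way, though neither difference passed. It had 7.64, 7.55 and 7.64 with RNeasy, 7.47, 7.68 and 7.63 with PicoPure and 7.88, 7.73 and 7.92 with direct lysis. Each crude lysate lay above each purified sample, with a difference of 0.24 ± 0.07 (SE; 1.18-fold; limma, adjusted p = 0.2). The row is near background, where a log2 difference says little about the size of a change. Tead4 and Yap1 were the genes of the 10 whose crude lysates lay apart from all purified samples.

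The other TEAD and Hippo genes gave little more signal for TEAD itself. Tead1 lay above background on 8 arrays, Tead2 on 5 and Tead3 on 9, with mean levels in purified RNA and direct lysis of 7.60 and 7.34, 7.31 and 7.30, and 7.98 and 8.09. Wwtr1, the gene of the Yap1 relative TAZ, had 7.70 and 7.73. Of the kinases that hold Yap1 out of the nucleus, Lats1 had 10.69 and 10.37, whereas Lats2 was above background on none. Of 22 genes in this list 14 exceeded background in all oocytes and 3 in none, and 0 passed the test in any of the 4 comparisons (limma, 1.01% of all genes for direct lysis against purified RNA). Of 7 genes commonly read as targets of Yap1 and TEAD, 1 exceeded background in all oocytes and 3 in none, and 0 passed. The best known of them, Ccn1 and Ccn2, did so on 5 and 6 arrays.

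On the rows used, the pair Dppa2 and Dppa4 differed in how steady they were. Dppa2 had 12.09, 12.39 and 12.34 with RNeasy, 12.56, 12.41 and 12.18 with PicoPure and 12.47, 12.57 and 12.44 with direct lysis. Its SD between oocytes of a preparation was 0.149, and the groups overlapped except that all crude lysates lay above all RNeasy samples (0.22 ± 0.12 SE, limma, adjusted p = 0.451, and 0.13 without RNeasy replicate 1). Dppa4 had 9.52, 9.56 and 7.72 with RNeasy, 10.00, 8.67 and 9.27 with PicoPure and 8.15, 10.04 and 8.73 with direct lysis. Each preparation held higher and lower oocytes, and over all 9 the span was 2.32 log2 units, from near background to well above it. The lowest PicoPure oocyte, at 8.67, was 1.41 above its array's background. The difference of direct lysis from purified RNA was -0.15 ± 0.56 (SE), with a 95% interval from -1.45 to 1.16, so these oocytes do not settle it within a 2-fold change (limma, adjusted p = 0.926).

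Each of the pair has a second row on the array under the same gene symbol. Whether the 2 rows of a gene read the same message was not tested. The second row of Dppa2 lay between 11.57 and 11.94, below the first by 0.36 to 0.75, and Pearson's r between the rows was 0.68 over the 9 oocytes (0.65 without the 2 oocytes farthest from the median). The rows of Dppa4 had almost the same mean, 9.07 and 9.03, so the choice between them is close. The second row of Dppa4 read from 8.69 to 9.05 with RNeasy, 9.19, 8.83 and 8.96 with PicoPure and 8.79, 9.18 and 9.64 with direct lysis. It spanned 0.95 and not 2.32 log2 units. Over the 9 oocytes r between the Dppa4 rows was 0.46, and -0.06 without the 2 farthest from the median. The gap between the rows ran from -0.97 in RNeasy replicate 3 to 0.86 in direct lysis replicate 2. In direct lysis replicate 3 the second row was the highest of all (9.64) and the row used was not (8.73), and without that oocyte, left out after the values were seen, r was 0.98 over 8 oocytes. On the second row the difference of direct lysis from purified RNA was 0.25 ± 0.19 (SE) and that of PicoPure from RNeasy 0.08 ± 0.22 (limma, adjusted p over all rows 0.564 and 0.942), so the sign for direct lysis depends on the row. Between the rows used, r of Dppa4 with Dppa2 was 0.13 (0.28 without the 2 farthest), and with the second row of Dppa2 it was 0.55 (0.37). These correlations share arrays and scaling and are given as descriptions.

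**Figure D3:**
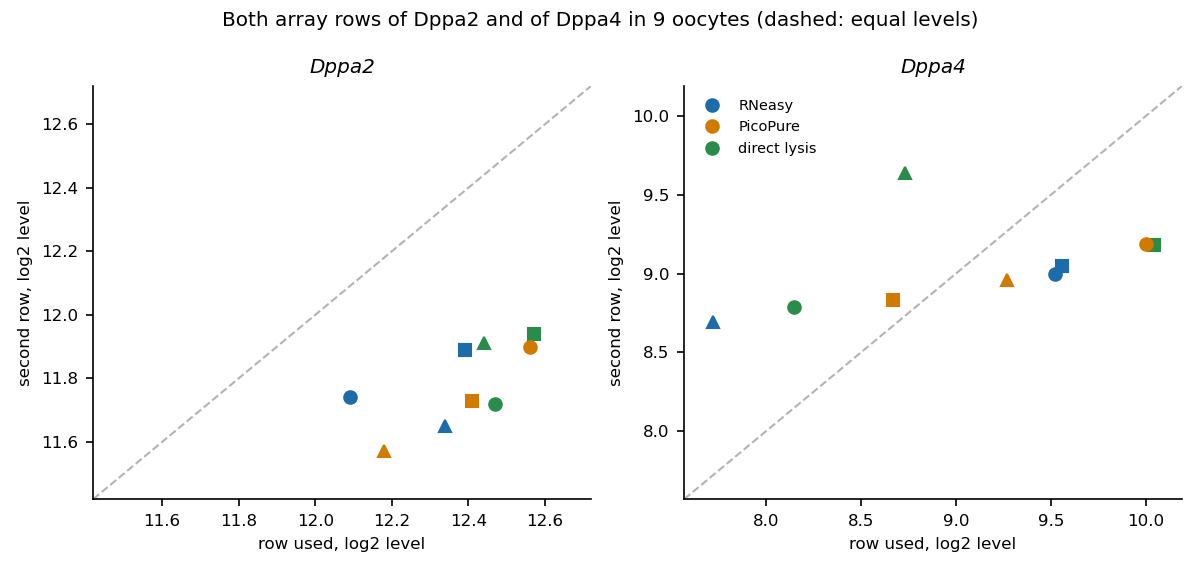
Second row against the row used (both log2 levels) for Dppa2 on the left and Dppa4 on the right, with 1 point per oocyte, colour for the preparation, shape for the replicate and a dashed line of equal levels. Dppa4 follows a shallow line from 7.72 to 10.04 on the row used, except for 1 direct lysis oocyte at 9.64 on the second row.

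Yy1 was set apart by 1 oocyte. It had 8.66, 8.68 and 9.97 with RNeasy, 8.57, 8.21 and 8.54 with PicoPure and 8.40, 8.32 and 8.31 with direct lysis. All 3 RNeasy oocytes lay above all others, but those at 8.66 and 8.68 by little. PicoPure differed from RNeasy by -0.66 ± 0.32 (SE; limma, adjusted p = 0.666) and direct lysis from RNeasy by -0.76 ± 0.32 (limma, adjusted p = 0.367). Without RNeasy replicate 3 these were -0.23 and -0.33 (limma, adjusted p = 0.891 and 0.382), so this oocyte sets most of their size. The same oocyte had the highest Yap1 and the lowest Dppa4, Ctcf and Trim24 of all 9. Its array had the highest background (7.48), the fewest genes above it (9661) and the highest summed level of the cumulus list (11.70). Inhba, Tnfaip6 and Ptgs2 were above background there alone, whereas Has2 and Ereg of the same list were so on no array. The part of these features in the Yy1, Yap1, Dppa4, Ctcf and Trim24 values was not tested. How many of all genes were extreme on this array was not counted.

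Ctcf overlapped between all preparations. It had 11.74, 11.54 and 11.28 with RNeasy, 11.80, 11.83 and 11.72 with PicoPure and 11.44, 11.82 and 11.73 with direct lysis. The lowest oocyte was again RNeasy replicate 3. The largest difference was 0.26 ± 0.14 (SE) between PicoPure and RNeasy (95% interval -0.06 to 0.58; limma, adjusted p = 0.686), and it was 0.14 without RNeasy replicate 3. Ctcfl, the Ctcf paralog known from the testis, and Zfp42, a relative of Yy1, were above background on no array, with means of 6.87 and 6.32 in purified RNA.

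Around Ctcf and Yy1, 1 of 20 partners passed the test, in each comparison of direct lysis. Of all genes 1.01% passed against purified RNA, 0.436% against RNeasy and 0.597% against PicoPure. Wapl, which releases cohesin from chromatin and so limits the loops that Ctcf anchors, had 11.81, 11.80 and 11.89 with RNeasy, 12.02, 11.95 and 11.89 with PicoPure and 11.10, 10.75 and 11.14 with direct lysis. It was lower in all 3 crude lysates, by -0.90 ± 0.09 against purified RNA (limma, adjusted p = 0.0111), -0.84 ± 0.11 against RNeasy (adjusted p = 0.0343) and -0.96 ± 0.11 against PicoPure (adjusted p = 0.0153). The call against RNeasy was lost without any 1 of the 6 purified arrays (limma, adjusted p from 0.0653 to 0.114) and that against PicoPure without any 1 of the PicoPure arrays (0.051 to 0.0872), while the difference stayed between -1.03 and -0.72. With the replicate number as a block in the fit, the call was lost in all these comparisons (limma, adjusted p = 0.0532 against purified RNA). The cohesin ring genes Rad21, Smc1a and Smc3 had differences of -0.05, -0.36 and -0.08, none past the threshold. Of 20 genes in the list 15 exceeded background in all oocytes and 4 in none.

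Smarca4 had 9.84, 9.65 and 10.02 with RNeasy, 10.02, 10.24 and 10.24 with PicoPure and 9.41, 10.07 and 10.10 with direct lysis. The PicoPure oocytes lay above the RNeasy oocytes, but the nearest values were both 10.02, and the crude lysates overlapped both. PicoPure minus RNeasy was 0.33 ± 0.19 (SE; 95% interval -0.11 to 0.77; limma, adjusted p = 0.729). Yap1 and Yy1 were the genes whose PicoPure oocytes lay below all RNeasy oocytes.

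RNA of most other SWI/SNF subunits was detected. Of 25 subunit genes 21 exceeded background in all oocytes, whereas Smarcd3 and Dpf1 did so on 8 arrays, Actl6b on 3 and Smarcd1 on 1. The alternative motor Smarca2 had 11.40 in purified RNA and 11.43 in direct lysis, the core subunits Smarcc1 and Smarcb1 9.30 and 9.37, and 9.62 and 9.48, and the DNA-binding subunit Arid1a 11.41 and 11.23. No subunit passed the test in any of the 4 comparisons.

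Trim24 was the steadiest of the 10, between 11.25 and 11.54 over all oocytes, and its difference of direct lysis from purified RNA was -0.01 ± 0.07 (SE; 95% interval -0.17 to 0.14; limma, adjusted p = 0.948). Trim28, the scaffold that brings the histone methyltransferase Setdb1 and HP1 proteins to silenced repeats, lay between 9.13 and 9.60. Its means were 9.29 ± 0.17 (RNeasy), 9.48 ± 0.11 (PicoPure) and 9.48 ± 0.09 (direct lysis; SD, n = 3 each). The ranges overlapped, and neither of the differences of 0.19 from RNeasy passed (limma, adjusted p = 0.699 and 0.459). Each was 0.11 without RNeasy replicate 1, and with quantile normalization that of PicoPure was 0.08.

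Among their relatives and partners, 12 of 13 exceeded background in all oocytes and 1 in none, and 0 passed. Setdb1 had 11.80 in purified RNA and 11.82 in direct lysis, the nucleosome remodeller Chd4 11.91 and 11.88, and the HP1 genes Cbx1, Cbx3 and Cbx5 9.74 and 9.75, 8.88 and 8.80, and 10.46 and 10.22. Trim33, the closest relative of Trim24 and Trim28, had 10.16 ± 0.27 (SD, n = 6) in purified RNA and 9.21 ± 0.51 (SD, n = 3) in direct lysis, a difference of -0.95 ± 0.23 (SE) that did not pass (limma, adjusted p = 0.116).

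Nfya lay between 10.59 and 11.30, with 10.90 ± 0.26 (SD, n = 3), 11.00 ± 0.20 and 11.11 ± 0.17 in RNeasy, PicoPure and direct lysis. The largest difference was 0.21 ± 0.16 (SE) between direct lysis and RNeasy (95% interval -0.16 to 0.58; limma, adjusted p = 0.578), and it was 0.06 without RNeasy replicate 2 and 0.12 without direct lysis replicate 3. NF-Y needs all 3 subunits to bind DNA, and the genes of the other 2 were above background on all arrays as well. Nfyc had 11.34 in purified RNA and 11.41 in direct lysis. Nfyb varied more, from 8.60 to 10.94 over the purified oocytes and from 9.91 to 10.23 in direct lysis, and neither gene passed in any comparison.

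The 10 genes differed widely in their spread between oocytes of the same preparation. The median SD over the 8597 genes above background on all arrays was 0.193, and 6 of the 10 lay below it and 4 above. Trim24 (0.0785), Tead4 (0.0896) and Yap1 (0.0969) were the lowest, with 10.7%, 14.8% and 17.6% of detected genes lower still. Tead4 lay only 0.16 to 0.65 above background, and the part of this in its small SD was not tested. Dppa4 (0.911) had more spread than 99.1% of detected genes and Yy1 (0.45) more than 87.3%. The value for Dppa4 holds for the row used. Its second row had SDs of 0.20 with RNeasy, 0.18 with PicoPure and 0.43 with direct lysis. The remaining 5 ran from 0.127 for Trim28 to 0.259 for Smarca4. Exactly equal values on 2 or 3 arrays occurred in 4 of the 10 genes (Trim24, Trim28, Yap1 and Tead4) and in 42.6% of detected genes, and the part of such ties in the small SDs was not tested.

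**Figure D4:**
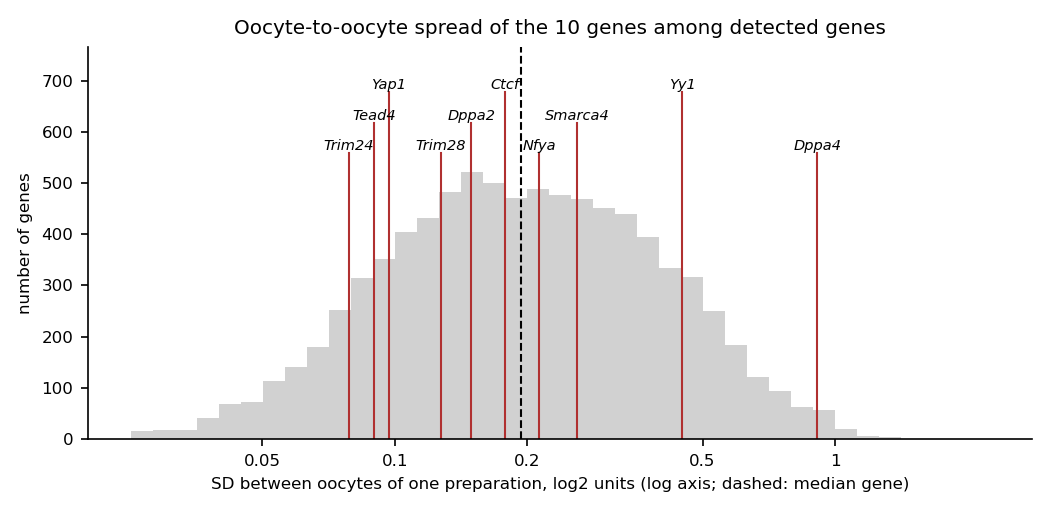
Number of genes (vertical axis) by SD between oocytes of one preparation (horizontal log axis) for the 8597 genes above background on all arrays, with the 10 genes in red and the median, 0.193, dashed. Trim24, Tead4 and Yap1 lie at the left, Tead4 with a signal near background, and Yy1 and Dppa4 (row used) lie at the right.

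For the 3 genes with the widest range, the genes most like them over the 9 oocytes were sought among 8596 detected genes by Pearson's r. For Dppa4 they were Hacd2 (0.98), Anapc16 (0.95) and Mtpap (0.93), with r of 0.96, 0.94 and 0.82 without the 2 oocytes farthest from the median. For Yy1 they were Slc25a38, Coa7 and Suco, each at 0.97, with 0.69, 0.85 and 0.74 without those 2, which include the high oocyte. For Smarca4 they were Fryl (0.96), Gdpgp1 (0.96) and Zfp280b (0.95), with 0.93, 0.77 and 0.98. Pearson's r does not show the size of a change. The ranges of Dppa4, Yy1 and Smarca4 were 2.32, 1.76 and 0.83. Hacd2 ran from 11.29 to 11.61, Anapc16 from 10.47 to 11.41 and Mtpap from 9.53 to 10.61. Slc25a38 ran from 7.43 to 9.06, Coa7 from 7.44 to 9.80 and Suco from 11.49 to 11.90. Fryl ran from 10.42 to 11.19, Gdpgp1 from 8.04 to 9.47 and Zfp280b from 12.39 to 12.74. Each like gene was picked as the best of 8596 over 9 arrays that share scaling and preparation, and the values are descriptions.

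A chosen list of zygotic and early embryonic genes mostly lay near or below background. Of 16 with a row of their own 3 exceeded it in all oocytes, against 43.1% of all genes, and 6 in none. Those 3 were Arg2 (11.19 in purified RNA and 11.14 in direct lysis), Eif1ad (9.41 and 9.30) and Gata3 (8.51 and 8.61). Of the 16 genes 0 passed the test. The Zscan4 and Dux genes, which are classic genes of the 2-cell embryo, were not analysed here. Of 24 other maternal or early factors with a row, 17 exceeded background in all oocytes and 4 in none, and 0 passed. The 3 further genes of the Dppa name, among them Dppa3, did so in all oocytes, and 0 passed. Over all partner and target lists together, 128 genes besides the 10, 86 exceeded background in all oocytes and 20 in none. Of them 1, Wapl, passed for direct lysis against purified RNA, where 1.01% of all genes passed, and 21 of 128 had an unadjusted p under 0.05, where 14.2% of all genes did.

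**Figure D5:**
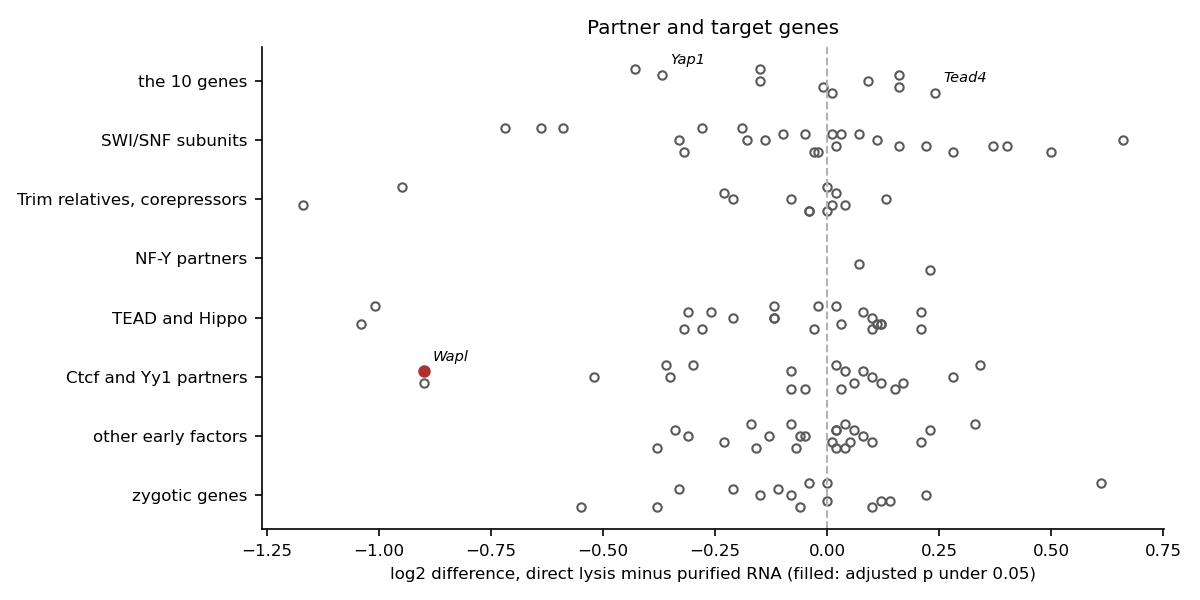
Log2 difference of direct lysis from purified RNA (horizontal axis) for the 10 genes and for the genes of 7 partner and target lists, with 1 point per gene, spread vertically only for legibility, and filled where the adjusted p was under 0.05. Wapl, at -0.90, is the only filled point, and the open points spread to both sides of 0.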

How the data were processed

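The authors deposited 1 table of log2 expression values, 35556 rows by 9 arrays. The submitters' processing notes name GCRMA, GCOS and Affymetrix Expression Console and give no versions or roles. Log2 was read from the values (2.41 to 13.90). The sources used here do not give the scale or genome build, and do not say which of these tools normalized the table. No scanner files were used, so background correction was not repeated. The number of arrays limits the precision.

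Row names came from the platform annotation: 21789 had 1 symbol, 1621 several and 12146 none. Rows with 1 symbol matched RefSeq (GRCm38.p6) by Entrez identifier in 21698 cases, and 0 symbols changed. For 999 genes with over 1 row the highest mean was used. Groups came from the sample titles. One limma 3.58.1 fit (R 4.3.3, lmFit and eBayes) over 9 arrays and 3 groups, with 6 residual degrees of freedom, gave 4 two-sided contrasts, adjusted by Benjamini-Hochberg over all 19938 genes. No level filter was applied. The fit was tested on simulated data. The 10 genes, the partner lists and the rules were chosen with earlier results of these data known. The rule for named genes took the 10, their direct partners, list genes past the threshold, zygotic genes above background on all arrays, and 3 like genes for each of the 3 widest-ranging genes. Smc1a, Smc3, Ccn1, Ccn2, Dppa3, Smarcd1, Smarcd3, Dpf1, Actl6b and the markers named lie outside it and were chosen after their values were seen. Alternatives were quantile normalization, median centring, a level filter, values raised to background, row choice, all rows, eBayes with trend and robust, a replicate block and each array left out. The second row of Dppa2 and Dppa4 was added after seeing the data.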

Additional observations from a re-analysis of the deposited data

Results flagged for a closer look

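Yap1 in RNeasy replicate 3, at 11.25, was far from the other 5 purified oocytes, with a gap to the nearest of 0.882 of the range. Yy1 in the same oocyte, at 9.97, was far from the rest both among the 6 purified and among all 9 oocytes, with a gap of 0.733 of the range in each. These were 3 of 24 checks over 12 rows, against critical values of 0.625 for 6 oocytes and 0.493 for 9. Chance flags about 1 group in 20, and the checks overlap, since both sets of oocytes include this one.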

How the results depend on the processing

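None of the 10 genes passed in any of 688 results under alternatives, 17 or 18 per gene and comparison. Over all genes, 201 passed for direct lysis against purified RNA, 12 for PicoPure against RNeasy, 87 for direct lysis against RNeasy and 119 for direct lysis against PicoPure (limma). With all rows tested these became 443, 27, 309 and 198. With arrays left out in turn they ranged from 24 to 232, 0 to 15, 3 to 95 and 14 to 123. eBayes with trend and robust gave 0 for the kits (1595 at an unadjusted p under 0.05), and quantile normalization 73 for direct lysis against PicoPure. Quantile normalization also moved the split of higher and lower genes from 68 and 133 to 75 and 83 against purified RNA, from 33 and 54 to 43 and 44 against RNeasy and from 34 and 85 to 31 and 42 against PicoPure. Values raised to background moved the median of all genes to -0.15 for the kits and -0.12 for direct lysis against RNeasy. The causes were not tested.

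Replicate numbers are shared across groups. Of 9 same-number pairs 1 had deviations correlated over 0.1 (-0.089 to 0.134), and the numbers were not taken to pair the oocytes. Yet 6 of 9 arrays correlated best with an array of their own number. Of pairs with different numbers, RNeasy replicate 2 and PicoPure replicate 1 reached 0.171. Pairing by number was therefore not settled. With the replicate block the counts were 25, 0 (1549 unadjusted), 15 and 17, and Wapl had adjusted p of 0.0532, 0.0851 and 0.0688 for direct lysis against purified RNA, RNeasy and PicoPure. Signal near background limits Tead4 and the low end of Dppa4.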

Other observations

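Named after their values were seen, the partner genes with the largest differences that did not pass were Morc3, a chromatin ATPase gene, at -1.17 for direct lysis against purified RNA (limma, adjusted p = 0.188), and the Hippo scaffold genes Sav1 and Mob1b, at -1.04 and -1.01 (adjusted p = 0.25 and 0.322). Between the kits they were Dppa5a, at -1.53 for PicoPure against RNeasy (adjusted p = 0.618), and the SWI/SNF subunit gene Pbrm1, at 1.27 (adjusted p = 0.727).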
